A study of Mus musculus with 4 samples.

Results

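The genes of the mitochondrial ribosome were examined as 77 promoters out of 22367, in chromatin immunoprecipitation sequencing (ChIP-seq) libraries from mouse embryonic stem cells. Members were the protein-coding genes of the GENCODE vM1 annotation, on genome build mm9, whose symbol starts with Mrpl or Mrps followed by a digit. They were 47 Mrpl genes and 30 Mrps genes, defined by name and not by any measured value. Earlier results of these data were known when they were chosen. For each gene, reads were counted from 1 kb before to 1 kb after its transcription start site (TSS), taken at gene level as the most upstream start in the annotation.

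The study held 4 libraries from E14TG2a.4 cells, a mouse embryonic stem cell line grown without feeder cells and with the cytokine LIF. One group was 2 ChIP-seq libraries of Jarid1b from E14 cells, made with the antibody Jarid1b-DAIN. Jarid1b, the product of Kdm5b, is a demethylase of lysine 4 on histone H3. The other 2 libraries were ChIP-seq of histone H3 trimethylated at lysine 4 (H3K4me3) with the antibody C42D8. One came from cells transduced with a PLKO.1 lentivirus that carries a scrambled short hairpin RNA (shRNA) and is called scramble here. The other came from cells transduced with a PLKO.1 lentivirus that carries a shRNA against Jarid1b and is called knockdown here. Both shRNA cultures were selected with puromycin, so that the scramble cells share the virus and the drug. No other genotype or time was analysed here, and the Jarid1b level left after the knockdown was not measured in these files.

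Mitochondria keep a small genome whose messages encode core subunits of the respiratory chain, and they translate them on a ribosome of their own. Its RNAs come from the mitochondrial genome, while its proteins are encoded in the nucleus, made in the cytosol and imported. Many of these proteins have a counterpart in the bacterial ribosome, and others were added in the lineage of mitochondria. The genes are widely expressed, and H3K4me3 marks the promoters of active genes in general.

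After removal of repeated positions, the libraries kept 4336767 and 1602370 reads (Jarid1b replicates 1 and 2), 5158330 reads (scramble) and 2635705 reads (knockdown). Repeats made up 31.5% of the scramble rows and 7.56% of the knockdown rows. Each H3K4me3 condition was 1 library, so no difference between them has a replicate check, and intervals cover counting error only. The Jarid1b libraries shared read positions. On the plus strand, 16.8% of the replicate 2 positions lay at a replicate 1 position, against a median of 1.76% at other offsets. The minus strand shared most at an offset of 8 bases, with 19.8% against 2.51%. Reads were 34 bases long in replicate 1 and 26 in replicate 2. Over promoters their counts differed by no more than sampling noise gives (chi-square divided by its degrees of freedom, 0.997), so both together were counted as 1 sample. Of the 10 stem cell markers, 9 had H3K4me3 at the promoter in the scramble library, and Esrrb had 3 reads at its most upstream start. Of the 10 fibroblast markers, which would mark feeder cells, 2 had it (Thy1 and Twist2), and the list ranged from 0 to 7.37 RPM (the reads-per-million scale, relative to the reads kept).

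Promoter sequence is shown for the 2 members with the highest and the 2 with the lowest H3K4me3 ratio between knockdown and scramble, and for the 2 with the highest mean Jarid1b signal. Each run is the 150 bases before the TSS from the mm9 reference, 5′ to 3′ on the strand of the gene. Capitals mark matches, on either strand, to short motifs of the factors NRF1 (GCGC, any base, then TGCGC), SP1 (GGGCGG) and NFY (CCAAT). None of the motifs searched was in the Mrpl13 run.
Mrps6 (chr16:92058365-92058514, plus strand): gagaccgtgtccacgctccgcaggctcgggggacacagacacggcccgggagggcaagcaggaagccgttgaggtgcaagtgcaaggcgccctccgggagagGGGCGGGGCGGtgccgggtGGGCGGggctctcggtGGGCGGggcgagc
Mrpl48 (chr7:107756812-107756961, minus strand): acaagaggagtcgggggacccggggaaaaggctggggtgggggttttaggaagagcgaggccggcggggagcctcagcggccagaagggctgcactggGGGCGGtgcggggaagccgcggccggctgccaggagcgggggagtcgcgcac
Mrpl45 (chr11:97176880-97177029, plus strand): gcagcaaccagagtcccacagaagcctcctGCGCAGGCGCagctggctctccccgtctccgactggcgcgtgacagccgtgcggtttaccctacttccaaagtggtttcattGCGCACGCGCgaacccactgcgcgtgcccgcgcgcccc
Mrpl13 (chr15:55389304-55389453, minus strand): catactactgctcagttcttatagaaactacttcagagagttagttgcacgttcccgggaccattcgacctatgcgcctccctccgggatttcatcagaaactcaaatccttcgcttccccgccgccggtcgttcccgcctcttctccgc
Mrpl41 (chr2:24830619-24830768, minus strand): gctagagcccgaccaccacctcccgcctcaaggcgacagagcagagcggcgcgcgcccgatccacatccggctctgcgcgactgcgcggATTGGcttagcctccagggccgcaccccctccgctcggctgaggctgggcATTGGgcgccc
Mrpl12 (chr11:120345777-120345926, plus strand): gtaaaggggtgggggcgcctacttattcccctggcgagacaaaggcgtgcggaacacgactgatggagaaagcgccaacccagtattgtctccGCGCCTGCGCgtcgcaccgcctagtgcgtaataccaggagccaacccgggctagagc

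These runs differ in base composition. G and C made up 75.3% of the Mrps6 run and 73.3% of the Mrpl48 run, the members with the highest ratios. They made up 67.3% of the Mrpl45 run and 54.0% of the Mrpl13 run, the members with the lowest. The Mrpl41 run had 72.7% and the Mrpl12 run 62.0%.

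Motifs were searched on both strands from 250 bases before to 50 bases after the TSS of every gene. The ETS and GABP motif CCGGAAG was in 27 of the 77 members (35.1%), against 10.8% of all promoters and 16.2% of those with H3K4me3. GABP is a nuclear factor known for activating genes of the respiratory chain. The YY1 motif AAGATGGC was in 12 members (15.6%), against 3.30% of all promoters and 4.15% of those with H3K4me3. The NRF1 motif was in 11 members (14.3%), against 6.02% of all promoters and 9.48% of those with H3K4me3, and the form with A as the free base, an exact palindrome, was in 2 of them, Mrpl9 and Mrpl32. The SP1 motif was in 46.8% of members, close to the 43.4% of all promoters and below the 64.4% of those with H3K4me3. The NFY motif was in 39.0% of members, against 37.9% of all promoters and 37.7% of those with H3K4me3. A TATAAA box was in 5 members (6.49%), against 13.4% of all promoters and 6.96% of those with H3K4me3. A match to these letters is not evidence of binding, and the SP1 and NRF1 letters are themselves rich in G and C.

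Almost every member carried H3K4me3. In the scramble library 76 of 77 were enriched, against a background of 60.0% of all protein-coding promoters, and in the knockdown library 74 were, against 59.9%. Enrichment was called by a one-sided Poisson test of the window against the genome rate or, where it was larger, the rate in the 10 kb beyond each side of the window, with p-values adjusted by the Benjamini-Hochberg method over all 22367 promoters at 0.05. The members' median was 159 reads (30.8 RPM) in the scramble library, above the median of 91 reads (17.6 RPM) over all promoters called in that library. In the knockdown library it was 67 reads (25.4 RPM), near the median of 63 reads (23.9 RPM) over all promoters compared between both libraries. Members ranged from 1.74 to 68.4 RPM in scramble and from 0.759 to 75.5 RPM in knockdown.

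The members with most scramble H3K4me3 came from both subunits. Mrpl49, a protein of the large subunit found only in mitochondria, had 353 scramble reads (68.4 RPM) and 105 knockdown reads (39.8 RPM). Mrps7, the counterpart of a bacterial small subunit protein that binds ribosomal RNA, had 326 (63.2 RPM) and 199 (75.5 RPM). Mrpl51 had 316 and 86 reads, and Mrps34, a small subunit protein specific to mitochondria, had 313 and 177. All 4 had another protein-coding TSS within 1 kb, at 135, 126, 206 and 29 bases in the same order, so that their windows hold reads of a pair of promoters. Among the 48 members without such a neighbour, the highest scramble level was that of Mrpl12 (248 reads, 48.1 RPM).

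**Figure D1:**
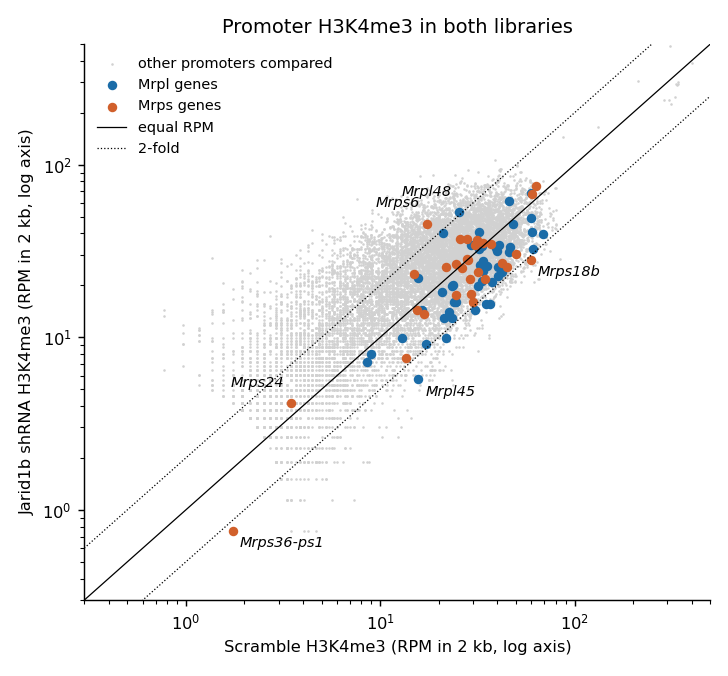
H3K4me3 RPM in the 2 kb promoter window, scramble library on the x axis and Jarid1b shRNA library on the y axis, both log axes, for Mrpl genes (blue), Mrps genes (orange) and the other promoters compared (grey). The solid line marks equal RPM and the dotted lines a 2-fold difference. Most members lie in the upper range of scramble levels and below the centre of the grey cloud, and Mrps36-ps1 and Mrps24 lie far to the left.

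The 4 lowest members were Mrps36-ps1, Mrps24, Mrpl33 and Mrpl54. Mrps36-ps1 had 9 scramble and 2 knockdown reads, and passed in the scramble library alone. Its symbol marks it as a pseudogene copy of Mrps36, so it is a member by name, and reads from near-identical copies could be shared between them. Mrps36 itself had 126 and 70 reads; its product is now known mainly as a component of the alpha-ketoglutarate dehydrogenase complex. Mrps24 had 18 and 11 reads and was the member enriched in neither library. Its gene-level start lies 7993 bases upstream of the start of its 1 annotated coding transcript, and a window at that second start held 136 and 101 reads. Mrpl33 had 44 and 19 reads at the gene-level start, and 76 and 48 at the start shared by most of its coding transcripts, 17004 bases away. Mrpl54 had 46 and 21 reads and passed in the scramble library alone. Outside its window but inside the local rate it was tested against, 39 scramble and 27 knockdown reads lay 1000 to 1500 bases upstream. A further 36 and 18 lay 1500 to 2000 bases upstream, and 14 and 43 lay 9000 to 9500 bases downstream.

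The mark had the usual form of an active promoter. Averaged over members, H3K4me3 was highest 175 bases downstream of the TSS in both libraries, at 52.0 times the level of the flanks (beyond 2 kb from the TSS) in scramble and 55.6 times in knockdown. The other promoters compared peaked at the same place, at 24.9 times and 38.2 times their flanks. A smaller peak lay 225 bases upstream, and 71.9% of the scramble reads and 69.9% of the knockdown reads within 1 kb of the TSS were downstream of it.

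At the peak itself both libraries had nearly the same H3K4me3, 38.5 RPM per kb in scramble and 38.6 in knockdown. Between 500 and 1000 bases downstream the scramble library had more. Summed over the 75 members compared, the 500 bases after the TSS held 6198 scramble and 2823 knockdown reads and a log2 ratio of −0.17 (95% interval −0.23 to −0.10). The next 500 bases held 2889 and 975 reads and a log2 ratio of −0.60 (−0.70 to −0.49). Over the other promoters the same intervals gave 0.58 and 0.14, so that the ratio was lower in the second interval there as well. Beyond it the members' ratio was 0.08 (−0.14 to 0.30) from 1000 to 1500 bases and 0.36 (0.04 to 0.67) from 1500 to 2000 bases. These sums weight members by their reads.

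Members had lower ratios between knockdown and scramble than other promoters, as a description of these 2 libraries. Stem cell markers were mixed, with a median of −0.70 and 6 of the 9 compared below 0. Among the 9, 4 were called lower, including Nanog (−1.23) and Zfp42 (−1.43), against 2.37% of all promoters compared. The interval lay above 0 in 2, Klf4 (0.69) and Utf1 (0.33). Only 2 fibroblast markers were compared. Twist2 was called higher (1.28), and the other was at 0.97 with an interval that spans 0. The part of these markers in the members' ratios was not tested. In such bulk libraries, fewer cells with the mark and less of it per cell cannot be told apart. The ratio was taken on RPM as knockdown over scramble, with an exact Clopper-Pearson 95% interval, over promoters enriched in either library and with at least 20 reads in both together. The median log2 ratio of the 75 members compared was −0.32, with quartiles of −0.71 and 0.02, while the median of all 13273 promoters compared was 0.41. The ratio was below 0 in 54 of 75 members (72.0%), against 30.5% of all promoters compared. Scaling the libraries so that the median of all promoters is 0 shifts every ratio by −0.41, which made the members' median −0.72, and scaling to background reads away from promoters made it −0.08. The distance between the members' median and that of all promoters, −0.72, does not depend on such a scaling.

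**Figure D2:**
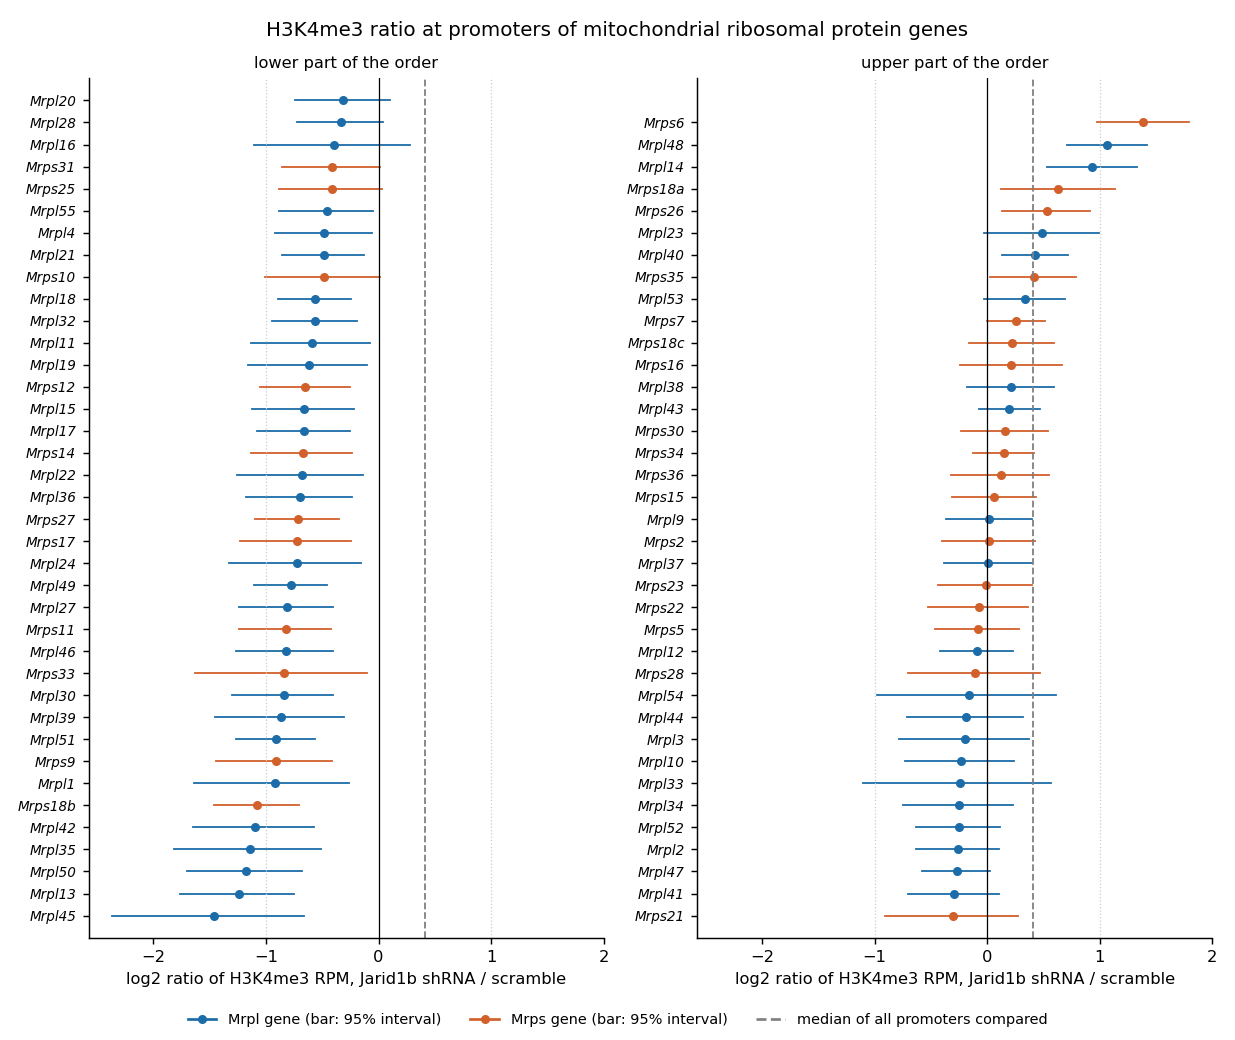
log2 ratio of H3K4me3 RPM, Jarid1b shRNA over scramble, for the 75 members compared, in order from Mrpl45 at the lower left to Mrps6 at the upper right, Mrpl genes in blue and Mrps genes in orange. Bars are exact 95% intervals for counting error; the dashed line is the median of all promoters compared (0.41) and dotted lines mark a 2-fold difference. In 32 members the interval lies below 0 and in 7 above it.

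The interval lay below 0 in 32 of 75 members, against 11.2% of all promoters, and above 0 in 7, against 43.7%. A call further required a 2-fold difference. By that rule 6 members were lower in knockdown, against a background of 2.37%, and 2 were higher, against 24.0%. Of the 6 called lower, 5 were among the 47 Mrpl genes compared (10.6%) and 1 among the 28 Mrps genes compared (3.57%). The difference between these shares was not tested.

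Mrpl45, a large subunit protein near the exit of the nascent chain that helps to hold the ribosome at the inner membrane, had the lowest ratio. It had 81 scramble reads (15.7 RPM) and 15 knockdown reads (5.69 RPM), and a log2 ratio of −1.46 (−2.37 to −0.66). Both libraries had little of it upstream of the TSS, with 6 and 2 reads, and the downstream part gave −1.56. Mrpl13, the counterpart of bacterial L13, had 190 scramble reads (36.8 RPM) and 41 knockdown reads (15.6 RPM), and a log2 ratio of −1.24 (−1.77 to −0.75). Its upstream and downstream parts gave −1.29 and −1.23, so that the mark was lower over the whole window. The TSS of Mtbp lies 340 bases from that of Mrpl13.

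Mrpl50, specific to mitochondria, had 181 scramble and 41 knockdown reads and a log2 ratio of −1.17 (−1.70 to −0.68). Its difference lay on the side of the gene, with 113 and 14 reads downstream of the TSS (−2.04). On the upstream side, toward Zfp189 whose divergent TSS is 83 bases away, it had 68 and 27 reads (−0.36, −1.06 to 0.30). Mrps18b, one of the mammalian relatives of bacterial S18, was the small subunit gene called lower. It had 306 scramble reads (59.3 RPM) and 74 knockdown reads (28.1 RPM), and a log2 ratio of −1.08 (−1.47 to −0.71), and shares its promoter with the divergent gene Ppp1r10 at 45 bases.

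Mrpl35, the counterpart of bacterial L35, had 112 scramble and 26 knockdown reads and a log2 ratio of −1.14 (−1.81 to −0.51). Mrpl42 had 159 and 38 reads and a log2 ratio of −1.10 (−1.65 to −0.58). Neither has another coding TSS within 1 kb. Just outside the 2-fold threshold were Mrpl1 (−0.92), Mrps9 (−0.92) and Mrpl51 (−0.91), whose intervals also lay below 0.

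The 2 members called higher were Mrps6 and Mrpl48, with the G and C rich runs printed above. Mrps6, the counterpart of bacterial S6, had 90 scramble reads (17.4 RPM) and 120 knockdown reads (45.5 RPM), and a log2 ratio of 1.38 (0.98 to 1.79). It was higher on both sides of the TSS, by 1.16 upstream and 1.48 downstream. Slc5a3, which encodes a transporter of myo-inositol, has its TSS 52 bases away, so that the reads cannot be given to one gene. Mrpl48, a large subunit protein specific to mitochondria, had 131 scramble reads (25.4 RPM) and 140 knockdown reads (53.1 RPM), and a log2 ratio of 1.06 (0.71 to 1.42). At the start shared by most of its coding transcripts, 25167 bases away, it had 34 and 21 reads and a log2 ratio of 0.27 (−0.58 to 1.10), so its call holds for the upstream start alone. The TSS of Rab6 is 887 bases from that upstream start. Just below the threshold was Mrpl14, with 109 and 106 reads and 0.93 (0.53 to 1.33). Of its knockdown reads, 25.5% were downstream of its own TSS, and that of Tmem63b is 583 bases away.

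None of the 3 highest ratios belonged to a member with its promoter to itself. Another coding TSS lay within 1 kb of 29 members (37.7%), against 12.1% of all promoters and 18.6% of those compared. In 16 members the neighbour was divergent, meaning that the genes are read away from each other. Mrps11 and Mrpl46, one of each subunit, have starts 412 bases apart and share most of their windows, with 232 and 67 reads for Mrps11 and 208 and 60 for Mrpl46. They gave log2 ratios of −0.82 and −0.82 and are 1 observation rather than 2. Members with a neighbour had a median of 217 scramble reads and a median ratio of −0.30, and the 48 others had 140 reads and −0.33. Without the members that have a neighbour, 3 of 46 were called lower (Mrpl45, Mrpl35 and Mrpl42) and 0 higher. Of all promoters compared without a neighbour, 2.20% were called lower and 27.1% higher, with a median of 0.50, and of those with a neighbour 3.12% and 10.2%, with a median of 0.085.

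In 3 members, picked out after their values were seen, the sides of the TSS went opposite ways, with an interval above 0 on one side and below 0 on the other. This was 4.00% of the members compared, against 1.98% of all promoters compared. Mrps18c had 86 scramble and 78 knockdown reads upstream (0.83, 0.37 to 1.29), toward the divergent gene Helq at 27 bases, and 77 and 19 reads downstream (−1.05, −1.86 to −0.31). Mrpl43 had 152 and 50 reads upstream (−0.64, −1.13 to −0.17) and 155 and 130 downstream (0.71, 0.37 to 1.06). The TSS of Peo1 lies 369 bases from that of Mrpl43. Mrps35 had 55 and 10 reads upstream (−1.49, −2.63 to −0.50) and 89 and 88 downstream (0.95, 0.51 to 1.39), with no other coding TSS in its window. In all 3 the side with the higher ratio was the one richer in G and C. The shares were 55.0% upstream and 43.9% downstream in Mrps18c, 56.5% and 61.1% in Mrpl43, and 46.7% and 55.5% in Mrps35. The whole-window ratios of 0.22, 0.20 and 0.41 hide these differences.

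By role, the low ratios were most frequent among large subunit proteins with a bacterial counterpart. Of these 30 members, 27 had a ratio below 0, with a median of −0.48, 2 called lower and 0 higher. Mrpl12, which forms part of the stalk that binds translation factors, was near 0 with 248 scramble and 119 knockdown reads (−0.09, −0.42 to 0.23). Mrpl23 at the exit of the tunnel was 1 of the 3 exceptions above 0, with 81 and 58 reads (0.49, −0.03 to 0.99). The other two were Mrpl9 (0.02) and Mrpl14.

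The 19 large subunit proteins specific to mitochondria, which include Mrps18a and Mrps30 despite their symbols, had a median of −0.19, with 11 of 19 below 0, 3 called lower and 1 higher. Mrps18a had the highest ratio of any member without a neighbour, with 77 scramble and 61 knockdown reads (0.63, 0.12 to 1.14). The 16 small subunit proteins with a bacterial counterpart had a median of −0.11 over the 15 compared, with 9 below 0, 0 called lower and 1 higher. The 10 small subunit proteins specific to mitochondria had a median of −0.24, with 7 below 0, 1 called lower and 0 higher. Mrps26 among them had 133 and 98 reads (0.53, 0.14 to 0.92). All 4 medians were below the 0.41 of all promoters compared, of which 2.37% were called lower and 24.0% higher. The difference of the 4 roles from one another was not tested.

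The ratio moved with base composition. The 2 kb windows of members had a median GC content of 50.1%, lower than the 54.6% of all promoters compared. Across the 75 members, GC content and the log2 ratio had a Spearman correlation of 0.558 (Pearson 0.639), and across all promoters compared 0.628 (Pearson 0.625). These are descriptions over promoters of the same 2 libraries. The same trend was present away from promoters. For this, autosomal 1 kb bins were taken, low in H3K4me3 and at least 5 kb from the gene-level TSS of any protein-coding gene. Their knockdown over scramble log2 ratio went from −0.68 in bins under 30% GC to 1.15 in bins of 62 to 66%.

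Members lay below other promoters also at similar GC content. The 25 members of lowest GC content (43.2% to 47.95%) had a median ratio of −0.67, and all 25 were below 0, while the 1236 other promoters in this range had a median of −0.36 with 72.2% below 0. The middle 25 had −0.24 against 0.01. The 25 of highest GC content (52.95% to 61.9%) had −0.01 against 0.61, and included both members called higher. Relative to the running median of promoters of the same GC content, 59 of 75 members lay below, with a median of −0.32. On that scale 3 members were called lower (Mrps18b at −1.40, Mrpl49 at −1.15 and Mrpl51 at −1.08) and 0 higher, against 2.92% and 7.17% of all promoters. Mrpl13, at 47.8% GC, missed the 2-fold threshold narrowly at −0.99 (−1.51 to −0.50), and Mrpl45, at 43.7%, was at −0.87 (−1.77 to −0.060), both with intervals below 0. Mrps6 was at 0.35 (−0.06 to 0.76). Relative to background bins of the same GC content instead, 9 members were called lower, among them Mrpl13 (−1.20) and Mrpl45 (−1.18), against 4.24% of all promoters, and 0 were called higher, against 6.49%. The part of base composition, of scramble level and of library depth in these ratios was not tested.

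**Figure D3:**
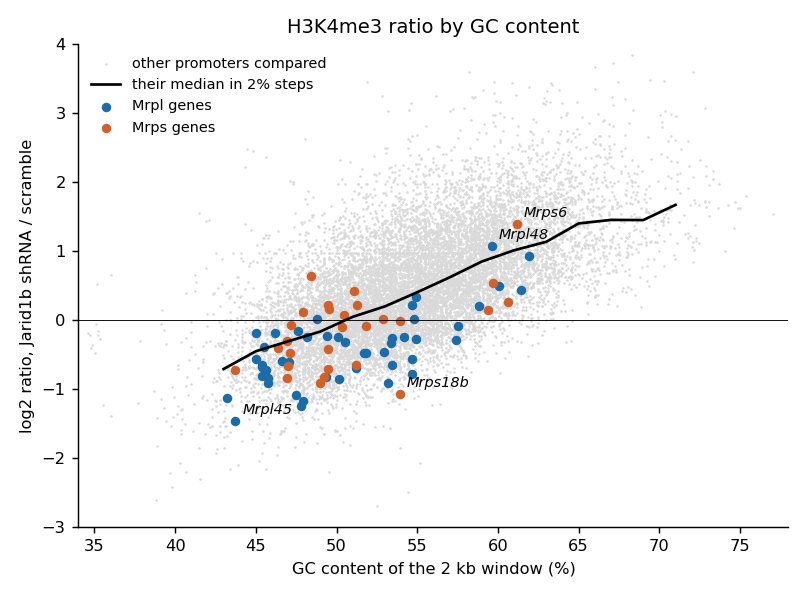
log2 ratio of H3K4me3, Jarid1b shRNA over scramble, against the GC content of the 2 kb window in percent, for Mrpl genes (blue), Mrps genes (orange) and the other promoters compared (grey), with the median of the grey points as a black line. Both the members and the grey points rise with GC content, and 59 of 75 members lie below the running median at their GC content.

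Few members were enriched for Jarid1b in both libraries. The Poisson test was passed in both by 4 of 77 members, against a background of 7.98%. Replicate 1 alone passed in 24, against 26.8%, and the shallower replicate 2 in 5, against 10.7%. Nearly all members carried H3K4me3, and the shares among all 13429 promoters with scramble H3K4me3 were higher. There 13.0% passed in both libraries, 42.2% in replicate 1 and 17.2% in replicate 2, against 5.19%, 31.2% and 6.49% of members. This difference was not tested, and GC content was not matched in it. Median Jarid1b signal was also taken for the lowest, middle and highest 25 members by GC content, and for other promoters in each range. In replicate 1 members had 2.36, 2.65 and 3.54 times the genome rate, and the others 1.77, 2.36 and 3.54. In replicate 2 members had 1.60, 2.40 and 3.19 times, and the others 1.60, 2.40 and 3.99. By these medians, members were lower only in the highest GC range of replicate 2. Counts were small. The members' windows held a median of 9 reads in replicate 1 and 4 in replicate 2, where the genome rate gives 3.39 and 1.25.

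Mrpl41, a large subunit protein specific to mitochondria, had the highest mean signal. It had 16 reads in replicate 1 and 10 in replicate 2, or 4.72 times (exact Poisson interval 2.70 to 7.66) and 7.98 times (3.83 to 14.7) the genome rate. Its adjusted p-values by the Poisson test were 0.0052 and 0.0039. Mrpl39 had 12 and 7 reads, 3.54 and 5.59 times the genome rate. Mrps35 had 9 and 8 reads, and Mrps9, the counterpart of bacterial S9, had 10 and 6. The H3K4me3 log2 ratios of these 4 were −0.29 (Mrpl41), −0.86 (Mrpl39), 0.41 (Mrps35) and −0.92 (Mrps9). None of them was called higher in knockdown. Only 2 of the 75 members compared were, so that an overlap was unlikely in any case.

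The 2 members called higher in H3K4me3 passed for Jarid1b in neither library. Of all promoters compared, 42.9% passed in replicate 1, 17.5% in replicate 2 and 13.3% in both. With 2 members, a lack of overlap cannot be told from these shares. Mrps6 had 10 and 5 reads and Mrpl48 had 5 and 5. Mrps6 missed the threshold narrowly, with adjusted p-values by the Poisson test of 0.061 and 0.065. With the libraries pooled, Mrps6 passed with 15 reads, as did 29 members in all, against 34.7% of all promoters. Mrpl48 did not pass there. Mrpl12, Mrpl47 and Mrpl23 had 18, 18 and 13 reads in replicate 1, where they passed, and 8, 6 and 8 in replicate 2, where they did not. The highest replicate 1 counts, 21 for Mrpl28 and 20 for Mrps34, went with 4 reads each in replicate 2. Across members the Jarid1b signal also moved with GC content, with a Spearman correlation of 0.597 in replicate 1 and 0.418 in replicate 2. When the expected reads were raised to those of background bins of the same GC content, 0 members passed in both libraries, and 86 of all 22367 promoters (0.384%) did. The mean Jarid1b signal and the H3K4me3 ratio had a Spearman correlation of 0.292 over 75 members. The ratio also rose with GC content (Spearman correlation 0.558), and the part of GC content in the 0.292 was not tested.

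**Figure D4:**
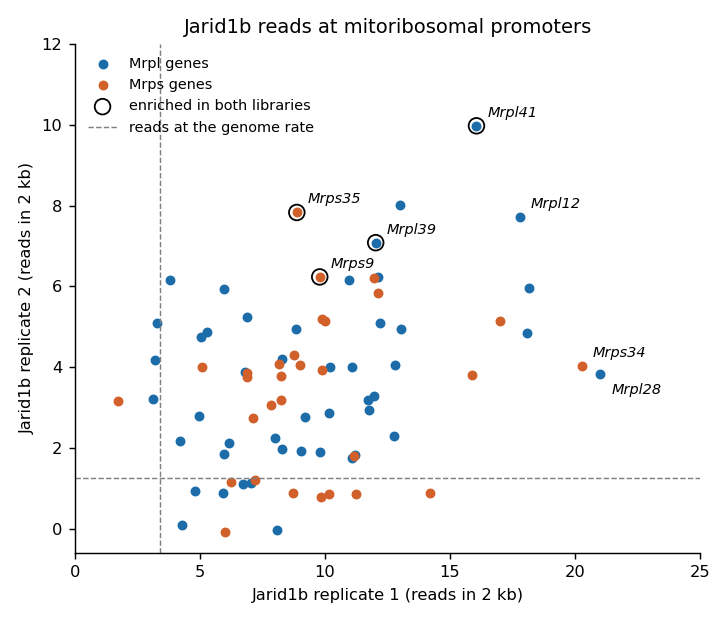
Jarid1b reads in the 2 kb window of each of the 77 members, replicate 1 on the x axis and replicate 2 on the y axis, with points spread slightly so that equal counts can be seen. Dashed lines are the reads expected at the genome rate (3.39 and 1.25), and rings mark the 4 members enriched in both libraries. Mrpl41 lies apart at the top with 16 and 10 reads.

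Other genes of mitochondrial gene expression had H3K4me3 at nearly all promoters too, with median ratios from −0.36 to 0.53 over 6 lists. Calls in these lists stand against 2.37% called lower and 24.0% called higher among all promoters compared. The 7 proteins of the mitochondrial ribosome without an Mrpl or Mrps symbol were all marked in both libraries, with a median ratio of −0.22 and 0 called in either direction. Among them Ptcd3 had 229 scramble and 67 knockdown reads (−0.80, −1.22 to −0.41), and Dap3, a GTP-binding protein of the small subunit, had 142 and 95 (0.39, −0.0015 to 0.77). The 17 promoters of ribosome assembly and rRNA modification had a median of −0.36, with 13 below 0, 3 called lower and 0 higher. Fastkd2 and Eral1, RNA-binding proteins needed to assemble the ribosome, were called lower, with 103 and 19 reads (−1.47) and 148 and 33 reads (−1.20). Their windows had GC contents of 43.6% and 46.5%. Promoters other than members with 43.2% to 47.95% GC had a median ratio of −0.36.

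The 17 mitochondrial aminoacyl-tRNA synthetases had a median of 0.03, with 8 of 17 below 0. The 11 translation factors had a median of 0.03 and the 9 genes of mitochondrial DNA transcription and maintenance a median of 0.04, with 0 called in either direction in both lists. Polg, the mitochondrial DNA polymerase, was just below the threshold with 118 and 112 reads (0.89, 0.51 to 1.28). Of the 11 nuclear regulators of mitochondrial genes, 10 were compared, with a median of 0.53, 1 called higher and 0 lower. Yy1 was called higher with 193 and 215 reads (1.12, 0.84 to 1.41) and a GC content of 69.2%; on the scale of the GC trend its value was −0.42.

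The proteins of the cytosolic ribosome, which are encoded by another set of nuclear genes, had still lower ratios. Of 82 such promoters 78 were compared, with a median of −0.54 and 69 below 0. In this set 16 were called lower (20.5%) and 0 higher, against 6 lower and 2 higher among the 75 members compared. Among all promoters compared, 2.37% were called lower and 24.0% higher. Scramble H3K4me3 at the cytosolic set had a median of 258 reads, above the 159 of the mitochondrial set. Jarid1b passed in both libraries at 5 of the 82, or 6.10%, against 5.19% of the mitochondrial set. The difference between the sets was not tested.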

How the data were processed

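ChIP-seq was measured in 4 libraries, 2 of Jarid1b and 2 of H3K4me3, at 1 per H3K4me3 condition. The authors deposited 1 row per aligned read, with position, strand and a score column that is 0 throughout. Alignment to mm9 used Bowtie, per the submitters' processing notes, with no version given in the sources used here. Peaks were called with MACS after IgG normalization, per the labels' protocols. The deposited rows still hold repeats and precede those steps, and no IgG library was used here.

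Of reads with the same strand and 5′ position, 1 was retained and moved 75 bases towards the fragment centre. Depth ranged from 1602370 to 5158330 reads kept, or 1.25 to 4.03 expected reads per 2 kb window, which limits the Jarid1b counts most. Windows, the Poisson test and ratios were computed with Python 3.11.15, numpy 2.4.6, scipy 1.17.1 and pandas 2.3.3. Because each H3K4me3 condition was 1 library, no test between conditions was run. The code was tested on simulated data.

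Members and gene lists were chosen with earlier results of these data known. Named members were those called for Jarid1b or H3K4me3, the 6 highest and 6 lowest ratios with at least 50 reads, the 4 highest and 4 lowest scramble levels, those enriched in neither library, the 4 highest in mean Jarid1b, and pairs with overlapping windows; of each other list, the 2 highest and 2 lowest ratios. Members set beside these for their place near a threshold, a neighbour or a role were chosen after their values were seen. Of the listed symbols, 16 of 18 in the assembly list matched, where 1 symbol belongs to a pair of genes, and 9 of 10 in the DNA list. Mrpl57 was not matched. Alternatives were other windows, starts, scalings, thresholds, read handling and GC corrections. Sequences are from the mm9 reference. A result on 1 gene of the pathway lists is not reported here.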

Additional observations from a re-analysis of the deposited data

How the results depend on the processing

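Counts of members enriched for H3K4me3 stayed within 1.5 times of the reported ones except where members with a neighbouring TSS were left out, which leaves 47 (scramble) and 45 (knockdown) of 48. Jarid1b in both libraries, 4 as reported, was 2 with windows of 2 kb each side (7.04% of all promoters), 0 at a threshold of 0.001 (1.39%), 18 with the genome rate alone (24.7%), 0 with a GC-adjusted background (0.384%), 29 with the libraries pooled (34.7%), and between 5 (10.7%) and 24 (26.8%) when 1 Jarid1b replicate was left out. Members called higher, 2 as reported, were 1 with windows of 2 kb (21.6% of all promoters), 1 at the TSS of most transcripts (23.8%), 4 at 1.5-fold (38.3%), and 0 without neighbours (27.1% of promoters without one), with the median of all promoters set to 0 (1594 of 13273 promoters), with the GC trend removed (7.17%), and relative to background bins of the same GC content (6.49%). Members called lower, 6 as reported, were 3 without neighbours (2.20% of promoters without one), 27 with the median set to 0 (8.99% of all promoters), 2 when scaled to background bins (0.934%), 3 with the GC trend removed (2.92%), and 27 at 1.5-fold (7.95%). The members' median ratio was −0.72 with the median set to 0 and −0.081 when scaled to background bins. The members' median minus that of all promoters was −0.32 with the GC trend removed and −0.43 relative to background bins of the same GC content. The alternative with those bins was chosen after seeing the data. So was moving the Jarid1b minus-strand reads by their read length, after which 4 members passed in both libraries (7.94% of all promoters). Yy1 changed sign with the GC trend removed (−0.42) and relative to background bins of the same GC content (−0.027). Over all promoters, 91.0% of calls were higher as reported, 57.2% with the median set to 0, 71.0% with the GC trend removed, 60.5% relative to background bins of the same GC content and 97.3% when scaled to background bins. The causes of these changes were not tested. No paired analysis was possible because each H3K4me3 condition is 1 library. Counting error at this depth leaves 36 of 75 members with an interval that spans 0.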
